A study of Homo sapiens with 87 samples.

Results

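The platelet-derived growth factor (PDGF) receptors and ligands are 6 genes of the 35438 listed in each of the gene-level tables: the receptor genes PDGFRA and PDGFRB and the ligand genes PDGFA, PDGFB, PDGFC and PDGFD. They were chosen by name, and their values were read in every library. HAP1 is a near-haploid human line that derives from a chronic myeloid leukaemia. The clones tested each lack a gene of BAF (SWI/SNF), a chromatin-remodelling complex that slides and evicts nucleosomes with the ATPase SMARCA4 or SMARCA2.

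The knockout table holds 75 libraries of poly-A RNA in 25 groups of 3. Of these, 24 groups are knockout clones of 22 genes, and the last is unmodified HAP1 (wild type). SMARCA4 has clones 2878-4 and 2878-6 and ARID1A has clones 618-10 and 618-3. Every other gene has a single group, which means that loss of the gene and any other trait of its clone cannot be told apart. For SMARCC2 the labels name no clone. The knocked-out genes are ACTB, ARID1A, ARID1B, ARID2, BCL7A, BCL7B, BCL11A, BCL11B, BRD7, BRD9, DPF1, DPF2, DPF3, PBRM1, PHF10, SMARCA2, SMARCA4, SMARCC1, SMARCC2, SMARCD1, SMARCD2 and SMARCD3. A second table, of double losses, has 6 groups with 2 libraries each, 12 in all: ARID2 knockout with a SMARCA4 knockdown, SMARCA4 knockout with an ARID2 knockdown, wild type with both knockdowns, and ARID2 knockout, SMARCA4 knockout and wild type with a control knockdown. The labels name no clone for these knockouts. The SMARCC2 libraries are numbered among these samples, apart from wild type and the other clones of the knockout table. Any difference tied to that numbering cannot be told apart from loss of SMARCC2. The labels do not state that replicate libraries were grown as separate cultures, so p-values measure only the spread between these libraries.

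PDGFs are secreted dimers that bring receptor tyrosine kinases together at the cell surface, and the paired receptors phosphorylate each other and recruit PI3K, phospholipase C gamma, SHC and GRB2. PDGFRA binds the A, B and C chains, and PDGFRB binds the B and D chains. The C and D chains are secreted with a CUB domain that proteases such as the plasminogen activators must remove. In tissues PDGFRA marks fibroblasts and their progenitors, PDGFRB marks pericytes and vascular smooth muscle, and activated PDGFRA drives some gastrointestinal stromal tumours and eosinophilic leukaemias.

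Total counts per library were 14917644 to 29993652 in the knockout table and 9144150 to 19789622 in the double-loss table. CPM is a gene's count per 1000000 counts of its library. A gene was called when edgeR's quasi-likelihood F-test gave an adjusted p under 0.05 (Benjamini-Hochberg over all genes tested) and the fold was at least 2, a log2 fold change of 1. The targeted mRNA itself was called lower in 14 of 24 clones and lay below wild type in every library in 20. Blood cell markers were low throughout: all 10 of the list, among them PTPRC, SPI1 and GATA1, stayed under 1 CPM in every group. Of 10 fibroblast markers, DCN, LUM, COL1A2, FAP and DPT stayed under 1 CPM in every group, and of 10 mural cell markers DES and MYH11 did.

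All 6 members passed the filter on low counts in the knockout table. PDGFRA and PDGFC were the well-expressed members. PDGFA was low, with 26 to 109 counts per library. PDGFRB, PDGFB and PDGFD were close to the detection limit in most groups. Per kilobase of exonic length (union of GENCODE 29 exons), wild type had 11.8 CPM of PDGFRA and 14.7 CPM of PDGFC. It had 0.826 CPM per kilobase of PDGFA, 0.0795 of PDGFRB, 0.0793 of PDGFB and 0.0202 of PDGFD. Across the 24 clones 30 of 144 clone and member pairs were called. At least 1 member was called in 19 clones, at least 2 in 6, and none in 5. For comparison, the share of all tested genes that was called was 11.3% and 10.2% in SMARCA4 clones 2878-4 and 2878-6, 6.28% and 6.1% in ARID1A clones 618-10 and 618-3, 6.86% in ARID1B, 6.49% in SMARCC2, 6.12% in BCL7B, 6.1% in SMARCC1, 5.53% in ARID2 and 5.1% in ACTB. It was 4.57% in SMARCD1, 4.14% in BCL11A, 3.81% in BCL11B, 3.55% in BRD7, 3.54% in BCL7A, 3.47% in SMARCD3, 3.28% in BRD9, 2.98% in DPF2, 2.96% in PBRM1, 2.8% in SMARCD2, 2.68% in PHF10, 2.19% in SMARCA2, 1.49% in DPF1 and 1.34% in DPF3, and 4.7% over all clones and genes. PDGFRA was called in 12 clones, PDGFB in 7, PDGFRB, PDGFA and PDGFD in 3 each and PDGFC in 2. Of all tested genes 2.35% were called in at least 12 clones, 5.68% in at least 7, 12.8% in at least 3 and 17.4% in at least 2, so counts of 2 or 3 are common.

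**Figure D1:**
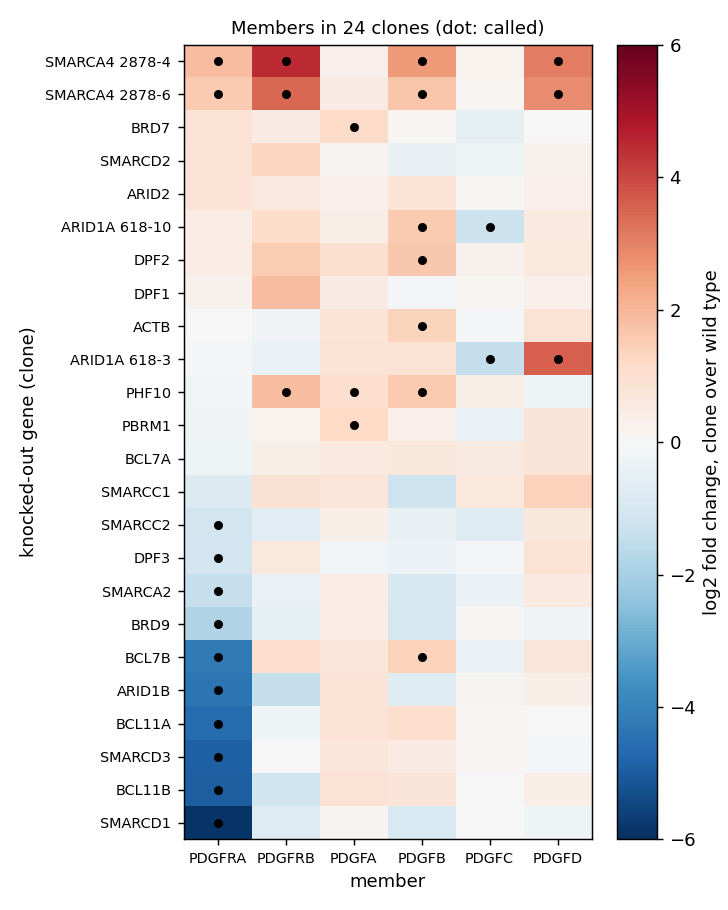
Colour shows the log2 fold change of each member (columns) in each of the 24 knockout clones (rows) over wild type, and a black dot marks a called change. PDGFRA has 2 called increases, both in SMARCA4 clones at the top, and 10 called decreases at the bottom, whereas the called changes of PDGFRB, PDGFA, PDGFB and PDGFD are increases and those of PDGFC are decreases.

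PDGFRA, the alpha receptor, had the widest range of the 6 genes. It was higher in both SMARCA4 clones and was nearly lost in the SMARCD1, BCL11B, SMARCD3, BCL11A, ARID1B and BCL7B clones, with a 208-fold span between the highest and lowest group means (330.8 CPM in SMARCA4 clone 2878-4 and 1.59 CPM in the SMARCD1 clone). The 2 increases and 10 decreases compare with 11.9% of tested genes called higher in at least 2 clones and 1.29% called lower in at least 10. In bulk RNA, fewer cells that express a gene and less RNA per cell cannot be told apart.

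The gene lies on chromosome 4, and the RefSeq table (GRCh38.p14) lists a pair of starts for it. Their promoters are shown because PDGFRA changed most, each running from 250 bases before the start to 50 after it on the plus strand. Capitals mark matches on either strand to the CCAAT box (spelled CCAAT), to the GC box bound by SP1 (spelled GGGCGG) or to TGANTCA. The last is a loose form of the AP-1 site that allows any base at the centre. None of the matches overlap.
PDGFRA, chr4:54229043-54229342: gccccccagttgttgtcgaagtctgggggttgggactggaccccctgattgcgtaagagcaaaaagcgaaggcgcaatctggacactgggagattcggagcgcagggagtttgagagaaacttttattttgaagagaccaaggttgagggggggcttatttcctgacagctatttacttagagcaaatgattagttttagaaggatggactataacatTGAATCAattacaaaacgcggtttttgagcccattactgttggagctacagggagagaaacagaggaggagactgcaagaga
PDGFRA, chr4:54233710-54234009: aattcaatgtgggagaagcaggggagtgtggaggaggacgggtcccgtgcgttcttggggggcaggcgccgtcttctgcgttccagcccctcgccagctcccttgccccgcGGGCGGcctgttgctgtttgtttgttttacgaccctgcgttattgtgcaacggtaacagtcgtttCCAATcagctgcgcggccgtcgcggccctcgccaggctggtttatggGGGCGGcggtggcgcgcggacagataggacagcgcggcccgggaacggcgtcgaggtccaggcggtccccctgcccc
The sequences differ in composition. The upstream one holds 8 CpG dinucleotides and 1 match to TGANTCA, letters found in 7.71% of the 35116 promoters of this length in the table. That match reads TGAATCA, with A where the usual AP-1 site has C or G. The downstream one holds 32 CpG dinucleotides, against a median of 14 over all promoters, with 1 match to CCAAT (34.6% of promoters) and 2 to GGGCGG (45% of promoters). The gene-level counts do not separate transcripts from these starts, and a match is a run of letters, not a tested site.

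In SMARCA4 clone 2878-4, PDGFRA had 287, 343 and 362 CPM and in clone 2878-6 it had 236, 271 and 309 CPM, against 80.8, 99.1 and 97.6 CPM in wild type. The clones did not overlap wild type, with log2 fold changes of 1.86 (SE 0.146, adjusted p = 1.87e-16) and 1.56 (SE 0.145, adjusted p = 1.11e-13). SMARCA4 is the main ATPase of BAF in most cells.

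Of the decreases, 6 formed a set apart: their 18 libraries lay between 1.30 and 6.20 CPM, and no library of the other 19 groups was under 24.8 CPM. SMARCD1 encodes a subunit of the BAF core, and its clone had 1.52, 1.95 and 1.30 CPM against 80.8 to 99.1 CPM in wild type (log2 fold change -5.90, SE 0.205, adjusted p = 2.17e-31). The clones of BCL11A and BCL11B, zinc finger proteins found with BAF, had 4.22, 3.83 and 3.31 CPM and 3.52, 2.51 and 3.29 CPM. The SMARCD3 clone had 2.95, 3.78 and 2.70 CPM. The ARID1B clone had 3.79, 4.64 and 4.68 CPM and the BCL7B clone 3.86, 4.50 and 6.20 CPM. The last 5 clones had log2 fold changes of -4.62 (BCL11A), -4.93 (BCL11B), -4.92 (SMARCD3), -4.40 (ARID1B) and -4.25 (BCL7B), each with an SE of at most 0.186. None of the 6 overlapped wild type.

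These 6 clones are not all distinct in the rest of their RNA. The BCL11A, BCL11B, SMARCD1 and SMARCD3 clones were alike over all tested genes, with pairwise correlations of 0.46 to 0.743 across the 16159 tested genes between group means centred on the mean of all groups. ARID1B and BCL7B correlated at 0.269. Genes are not independent replicates, and these values are descriptions. The targeted mRNA was not called lower in the BCL11A clone (8.13 against 7.48 CPM in wild type), the BCL11B clone (6.61 against 4.75 CPM) or, under the 2-fold limit, the SMARCD3 clone (16.9 against 27.2 CPM). Without these 4 clones PDGFRA was called lower in 6 of 20 clones and higher in 2. The part of this likeness in the low PDGFRA level was not tested.

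Smaller decreases were called in the BRD9 clone (25.5, 24.9 and 28.5 CPM; log2 fold change -1.83), the SMARCA2 clone (37.5, 36.4 and 34.2 CPM; -1.36), the DPF3 clone (38.0, 40.5 and 44.7 CPM; -1.16) and the SMARCC2 clone (36.7, 44.3 and 50.6 CPM; -1.12). All of these libraries were below the lowest wild-type library at 80.8 CPM. Another 6 clones passed the adjusted p without reaching the 2-fold limit, a rule for which the share of all tested genes was not counted. PDGFRA differed from wild type there by 0.85 on the log2 scale in BRD7, 0.83 in SMARCD2, 0.80 in ARID2, 0.45 in ARID1A clone 618-10, 0.44 in DPF2 and -0.80 in SMARCC1. The SMARCC1 libraries spread from 31.7 through 53.5 to 74.9 CPM, and without the last of them the difference was -1.12 and was called. The remaining clones had means of 112 ± 5.54 (DPF1), 90.8 ± 5.76 (ARID1A 618-3), 88.5 ± 3.21 (ACTB), 83.3 ± 4.40 (PHF10), 81.6 ± 2.97 (PBRM1) and 78.5 ± 8.48 CPM (BCL7A; SD, n = 3 each), against 92.5 ± 10.1 CPM in wild type (SD, n = 3). The DPF1 libraries all lay above wild type and the others overlapped it. Their differences from wild type did not pass the test, with 95% intervals that lay between -0.53 and 0.56 on the log2 scale.

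Ordered by mean, PDGFRA fell off in steps. The order from high to low was SMARCA4 2878-4, SMARCA4 2878-6, BRD7 (169 CPM), SMARCD2 (165), ARID2 (160), DPF2 (127), ARID1A 618-10 (127), DPF1, wild type, ARID1A 618-3, ACTB, PHF10, PBRM1, BCL7A, SMARCC1 (53.4), SMARCC2 (43.9), DPF3 (41.1), SMARCA2 (36.0), BRD9 (26.3), BCL7B (4.85), ARID1B (4.37), BCL11A (3.79), SMARCD3 (3.14), BCL11B (3.11) and SMARCD1. Of the 24 pairs of neighbours in that order 16 overlapped in their libraries. The 8 that did not overlap followed SMARCA4 2878-6, ARID2, ARID1A 618-10, DPF1, DPF3, SMARCA2, BRD9 and BCL11B.

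**Figure D2:**
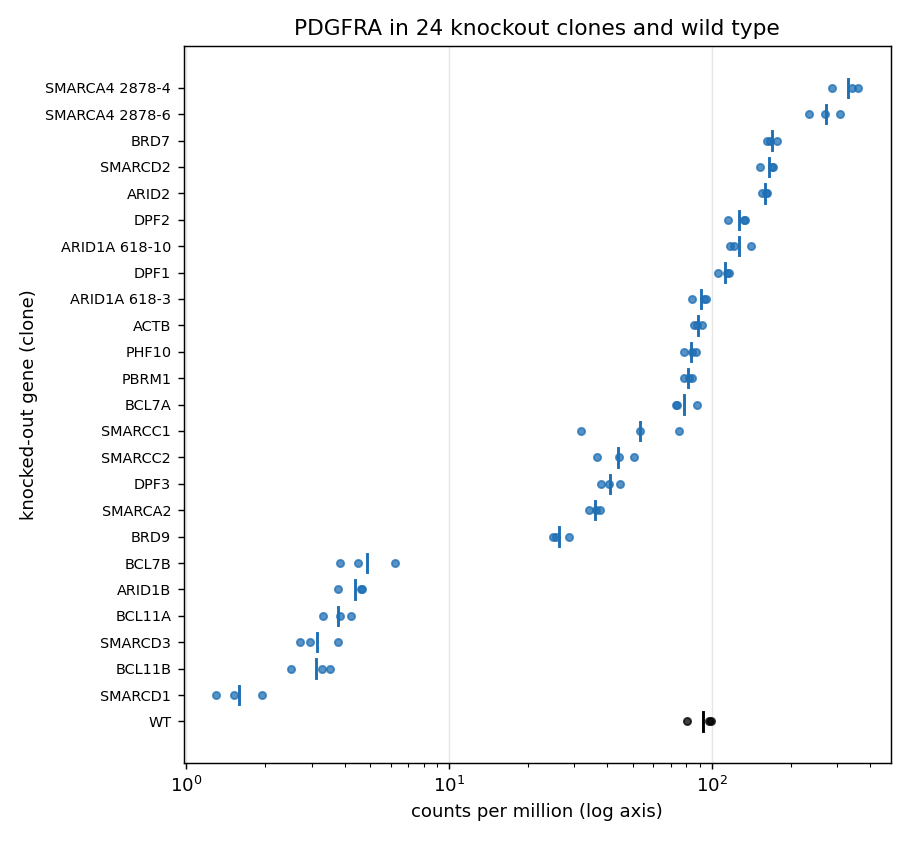
PDGFRA level in CPM (log axis) in each library of the 24 knockout clones, ordered by mean, with wild type in black at the bottom; points are libraries and bars are group means (n = 3). The 6 lowest clones lie between 1.30 and 6.20 CPM and are separated from all other groups, which start at 24.8 CPM.

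The neighbouring genes on chromosome 4 were read in the same clones. Whether a change at PDGFRA extended to them was not tested. GSX2, a homeobox gene, lies next to PDGFRA on one side with CHIC2 beyond it, and KIT, the stem cell factor receptor, lies next to it on the other side. Of the 10 genes of the neighbour list that were tested, PDGFRA included, 6 were called in no clone: LNX1, FIP1L1, TMEM165, SRD5A3, SCFD2 and CLOCK. Of all tested genes 74.7% were called in none. KDR, the next gene beyond KIT, did not pass the filter. CHIC2 was called only in the ARID1B clone (-1.05).

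GSX2 was called in 12 clones, where 2.35% of all tested genes were called in at least 12. In 10 of them PDGFRA was called in the same direction, a count that was not made for other genes. The 10 include both SMARCA4 clones and the BCL11A, BCL11B, SMARCD1 and SMARCD3 clones, which were alike over all tested genes. GSX2 had few counts, with 2.59 and 1.26 CPM in SMARCA4 clones 2878-4 and 2878-6 against 0.596 CPM in wild type (log2 fold changes 2.14 and 1.09). It was lowest in the SMARCD3 clone, at 0.0788 CPM, close to the lowest listed value of 1 count. In no clone were GSX2 and PDGFRA called in opposite directions. GSX2 alone was called in the ACTB clone (1.81) and the SMARCC1 clone (-1.66), and PDGFRA alone in the BCL7B and DPF3 clones.

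KIT took another course. It had 7 called decreases and no called increase, and PDGFRA was also called lower in 1 of the 7, the ARID1B clone (KIT -2.83, PDGFRA -4.40). Of all tested genes 5.68% were called in at least 7 clones, in either direction. In the SMARCA4 clones, where PDGFRA rose, KIT had 0.134 and 0.148 CPM against 9.89 CPM in wild type (log2 fold changes -6.14 and -5.99). Such levels are near the lowest listed value of 1 count, so the sizes of these folds are uncertain. In the SMARCD1 and BCL11A clones, where PDGFRA was nearly lost, KIT had 11.1 and 11.3 CPM (0.14 and 0.17, adjusted p = 0.727 and 0.644).

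**Figure D3:**
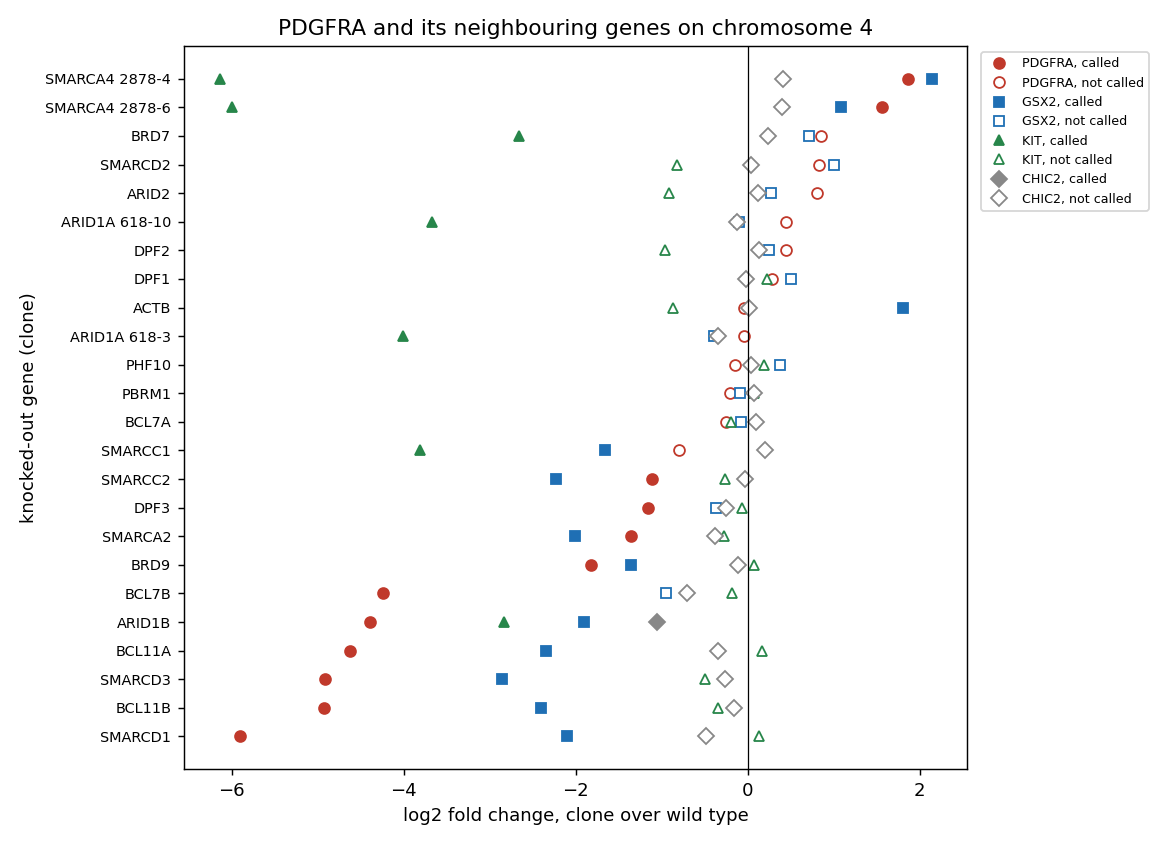
Log2 fold changes over wild type of PDGFRA (circles), GSX2 (squares), KIT (triangles) and CHIC2 (diamonds) in each of the 24 clones, ordered by PDGFRA; filled symbols are called and open ones are not. GSX2 lies on the same side of zero as PDGFRA in each of the 10 clones where both are called, whereas KIT is at -6.14 and -5.99 in the SMARCA4 clones and close to zero in most clones that lost PDGFRA.

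PDGFRB, the beta receptor on chromosome 5, rose in both SMARCA4 clones and in the PHF10 clone. Of all tested genes 8.3% were called higher in at least 3 clones. The RefSeq promoter (GRCh38.p14, minus strand, same window) is shown for comparison with those of PDGFRA, with the same motifs in capitals.
PDGFRB, chr5:150155796-150156095: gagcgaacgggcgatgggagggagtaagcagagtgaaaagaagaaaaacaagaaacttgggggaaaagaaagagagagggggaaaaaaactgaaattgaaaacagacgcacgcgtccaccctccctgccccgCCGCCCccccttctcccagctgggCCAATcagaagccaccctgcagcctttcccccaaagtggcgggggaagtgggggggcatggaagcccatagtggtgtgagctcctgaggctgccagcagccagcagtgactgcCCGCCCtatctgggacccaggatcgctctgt
It holds 1 match to CCAAT and 2 to GGGCGG on the other strand, as does the downstream PDGFRA promoter in number, but 11 CpG dinucleotides in place of 32.

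PDGFRB had 12.3, 8.27 and 10.3 CPM in SMARCA4 clone 2878-4 and 6.20, 5.01 and 3.87 CPM in clone 2878-6, against 0.280, 0.315 and 0.768 CPM in wild type. That is 178 to 222 and 85 to 115 counts in the clones against 5, 7 and 17 counts in wild type. The log2 fold changes were 4.48 (SE 0.551, adjusted p = 9.04e-10) and 3.43 (SE 0.551, adjusted p = 7.98e-07), and no library of any other group reached the lowest of these 6. Without wild-type replicate 3, the library with 17 counts, they were 5.11 and 4.06. The clones did not overlap each other, but their difference of 1.05 did not pass the test (adjusted p = 0.269).

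In the PHF10 clone PDGFRB had 1.07, 1.28 and 2.70 CPM (log2 fold change 1.84, SE 0.582, adjusted p = 0.0388). This call was weak. It was lost in 5 of 8 alternative analyses, of which 1, the adjusted p alone, cannot lose a call. The losses included DESeq2 (1.75, adjusted p = 0.0819) and the fit of only the groups compared (adjusted p = 0.102). The call was also lost without PHF10 replicate 3 (1.33), wild-type replicate 1 (1.62) or wild-type replicate 2 (1.62). The DPF1 clone had a like level, at 1.70 ± 0.190 CPM (SD, n = 3), which did not overlap wild type but missed the threshold (1.86, SE 0.579, adjusted p = 0.0711). In the other clones the means lay between 0.165 ± 0.115 CPM (ARID1B) and 1.35 ± 0.372 CPM (DPF2; SD, n = 3 each), against 0.454 ± 0.272 CPM in wild type (SD, n = 3). Between them in falling order were SMARCD2, ARID1A 618-10, BCL7B, SMARCC1, DPF3, ARID2, BRD7, BCL7A, PBRM1, SMARCD3, ACTB, BCL11A, ARID1A 618-3, SMARCA2, BRD9, SMARCD1, SMARCC2 and BCL11B, with wild type after SMARCD3. Every pair of neighbours in the whole order overlapped except those that followed each of the SMARCA4 clones.

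Counts of PDGFRB were uneven within groups. The SMARCC1 libraries held 7, 6 and 38 counts and the SMARCD3 libraries 3, 2 and 25. The library numbered 3 was the highest in 16 of the 25 groups, a number that was between 3 and 12 for the other members. Among the neighbours of PDGFRB on chromosome 5, ARSI was called in 7 clones (6 higher, 1 lower) and PDE6A in the ARID2 clone alone (1.17). Of all tested genes 5.68% were called in at least 7 clones and 74.7% in none. TCOF1, PPARGC1B, TIGD6, HMGXB3 and SLC26A2 were called in none, and CSF1R, CDX1, SLC6A7 and CAMK2A did not pass the filter. ARSI was not called in either SMARCA4 clone.

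**Figure D4:**
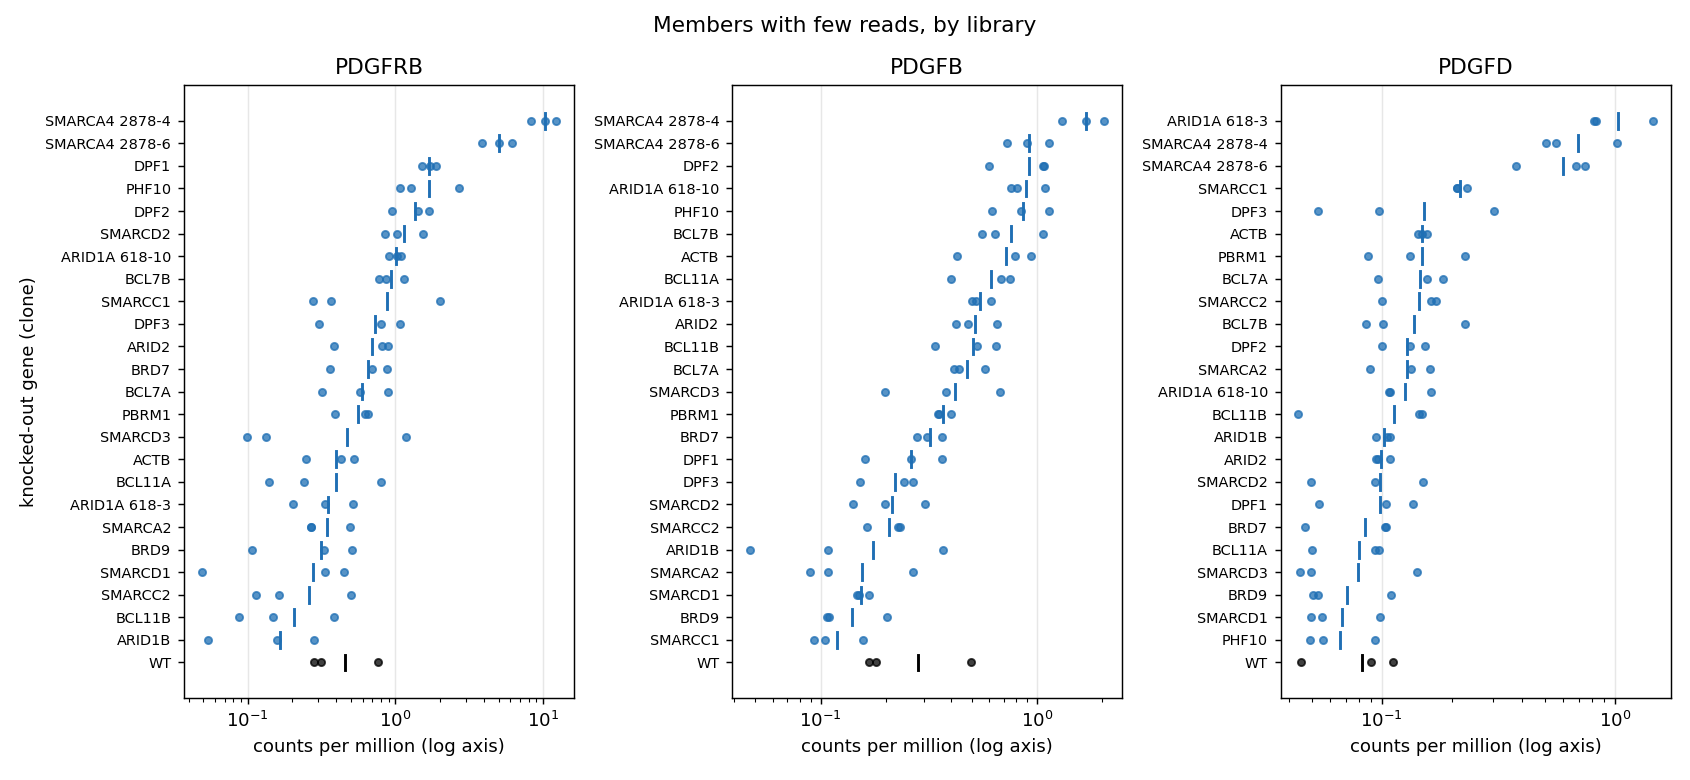
Level in CPM (log axis) of PDGFRB, PDGFB and PDGFD in each library of the 24 clones, ordered by mean in each panel, with wild type in black at the bottom; points are libraries and bars are means (n = 3). Both SMARCA4 clones are among the 3 highest groups in every panel, PDGFRB reaches 12.3 CPM, and no library has more than 1.46 CPM of PDGFD.

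PDGFA, which encodes a ligand chain of PDGFRA, was low and varied little, between 1.75 ± 0.412 CPM in the DPF3 clone and 4.58 ± 0.271 CPM in the PBRM1 clone (SD, n = 3 each), against 1.96 ± 0.294 CPM in wild type. It was called higher in the clones of PBRM1, BRD7 and PHF10, which encode subunits of the PBAF form of the complex. PDGFA had 4.74, 4.74 and 4.27 CPM in the PBRM1 clone and 3.99, 4.27 and 4.80 CPM in the BRD7 clone, against 2.19, 2.07 and 1.63 CPM in wild type. These groups did not overlap, and the log2 fold changes were 1.20 (SE 0.232, adjusted p = 0.000144) and 1.14 (SE 0.233, adjusted p = 0.00028).

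The PHF10 libraries had 4.25, 5.05 and 2.42 CPM, and their log2 fold change of 1.00 stood at the limit. The call was lost in 4 of the same 8 alternative analyses: with DESeq2 (0.96), a replicate block, limma on the log2 TPM values (0.92) and only the groups compared (adjusted p = 0.115). It was also lost without PHF10 replicate 1 (0.94) or 2 (0.79) or wild-type replicate 3 (0.89). In the clone of ARID2, another PBAF subunit, PDGFA had 3.27, 1.85 and 1.98 CPM (0.29, adjusted p = 0.51). Without the 2-fold limit 12 clones passed, all with PDGFA higher than in wild type. Those not called had log2 fold changes between 0.74 and 0.94. Every clone was set against the same 3 wild-type libraries, whose mean was the next to lowest of all groups. The share of all tested genes that passed without the 2-fold limit was not counted. In falling order of the mean PDGFA stood as PBRM1, BRD7, PHF10, DPF2, BCL11B, ARID1A 618-3, ARID1B, BCL11A, ACTB, SMARCD3, SMARCC1, BCL7B, BCL7A, SMARCA4 2878-6, DPF1, SMARCA2, SMARCC2, BRD9, ARID1A 618-10, SMARCA4 2878-4, ARID2, SMARCD2, SMARCD1, wild type and DPF3. Of the 24 pairs of neighbours 23 overlapped.

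PDGFB, which encodes the ligand chain that binds both receptors, had 7 called increases and no called decrease, where 2.33% of tested genes were called higher in at least 7. Its counts were small, between 1 and 44 per library. The SMARCA4 clones had 1.69, 2.04 and 1.31 CPM (2878-4) and 1.13, 0.893 and 0.729 CPM (2878-6), against 0.168, 0.180 and 0.497 CPM in wild type. The log2 fold changes were 2.55 (SE 0.357, adjusted p = 2.98e-08) and 1.66 (SE 0.378, adjusted p = 0.000343), with no overlap, and 3.25 and 2.36 without wild-type replicate 3.

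ARID1A clone 618-10 had 0.804, 1.09 and 0.761 CPM of PDGFB (1.59, adjusted p = 0.00128). Clone 618-3 had 0.543 ± 0.0581 CPM (SD, n = 3), which was not called (0.89, adjusted p = 0.136), and the clones did not differ by their own test (0.70, adjusted p = 0.515). The DPF2 clone (1.64), the PHF10 clone (1.57), the BCL7B clone (1.38) and the ACTB clone (1.32) were also called, with means of 0.913 ± 0.269, 0.862 ± 0.256, 0.755 ± 0.275 and 0.720 ± 0.264 CPM (SD, n = 3 each) against 0.282 ± 0.187 CPM in wild type. The ACTB libraries overlapped wild type. All 4 of these calls were lost with only the groups compared (adjusted p = 0.11, 0.124, 0.0953 and 0.139), and those of PHF10 and ACTB also with DESeq2 (adjusted p = 0.0796 and 0.149). Single libraries decided some of them: PHF10 was lost without its replicate 2 (1.35), BCL7B without its replicate 3 (1.03) and ACTB without its replicate 3 (1.07). Without wild-type replicate 2 these 3 were lost, and without wild-type replicate 1 ACTB was (1.08). Among wild-type libraries replicate 3 held 11 counts and the others 3 and 4. Without replicate 3, 10 clones were called; without replicate 2 of wild type, 4 were.

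Below these, PDGFB means ran from 0.609 ± 0.183 CPM in the BCL11A clone to 0.118 ± 0.0343 CPM in the SMARCC1 clone (SD, n = 3 each). The groups in between were, in falling order, ARID1A 618-3, ARID2, BCL11B, BCL7A, SMARCD3, PBRM1, BRD7, wild type, DPF1, DPF3, SMARCD2, SMARCC2, ARID1B, SMARCA2, SMARCD1 and BRD9. The only neighbours in the whole order that did not overlap were the SMARCA4 clones.

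PDGFC, which encodes the ligand chain that is cut free of its CUB domain before it binds PDGFRA, was the steadiest well-expressed member. It fell in both ARID1A clones, to 27.1, 24.2 and 24.3 CPM (618-10) and 24.6, 21.8 and 23.5 CPM (618-3), against 60.5, 59.3 and 64.0 CPM in wild type. The log2 fold changes were -1.29 (SE 0.0768, adjusted p = 7.14e-21) and -1.42 (SE 0.0771, adjusted p = 1.65e-22). Both clones lay below every library of the other 23 groups. Of all tested genes 9.09% were called lower in at least 2 clones. ARID1A encodes the large ARID subunit of canonical BAF.

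Libraries of a group differed little in PDGFC. Differences under 2-fold also passed the adjusted p in 11 further clones, a rule whose share of all tested genes was not counted. The largest were a decrease in SMARCC2, to 36.8 ± 2.87 CPM (-0.77, adjusted p = 2.31e-12), and an increase in SMARCC1, to 94.6 ± 2.17 CPM (0.62, adjusted p = 9.06e-10), against 61.3 ± 2.43 CPM in wild type (SD, n = 3 each). BCL7A (89.1 CPM, 0.52), PHF10 (77.4 CPM, 0.34), DPF2 (74.9 CPM, 0.28) and SMARCA4 2878-4 (70.0 CPM, 0.22) were higher. BRD7 (43.3 CPM, -0.52), BCL7B (46.6 CPM, -0.40), PBRM1 (47.4 CPM, -0.40), SMARCA2 (48.2 CPM, -0.35) and SMARCD2 (51.3 CPM, -0.26) were lower. The other clones had means between 55.7 CPM (ACTB) and 69.2 CPM (ARID1B): SMARCD3 had 68.9, BCL11A 68.0, DPF1 66.3, SMARCA4 2878-6 66.0, BRD9 65.7, ARID2 64.6, SMARCD1 64.5, BCL11B 60.9 and DPF3 57.4 CPM. Of 24 pairs of neighbours in the order 19 overlapped; those that did not followed SMARCC1, BCL7A, ACTB, BRD7 and SMARCC2.

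PDGFD, which encodes the ligand chain that is cut free of its CUB domain before it binds PDGFRB, was at the limit of detection in most groups, with 15 of 75 libraries at the lowest listed value of 1 count. It rose in ARID1A clone 618-3, with 15, 16 and 28 counts, and in the SMARCA4 clones, with 9, 12 and 22 counts (2878-4) and 7, 15 and 15 counts (2878-6), against 2, 2 and 1 counts in wild type. The summed counts per depth were 12.9 times the wild-type value in 618-3 (95% exact counting interval 5.22 to 41.2), 8.80 times in 2878-4 (3.49 to 28.5) and 7.59 times in 2878-6 (2.98 to 24.7). These intervals cover counting error only. The sizes depend on what the lowest listed value stands for. If 1 was added to every value, the wild-type sum is 2 counts and the ratios become 30.6 (8.08 to 259), 20.5 (5.31 to 175) and 17.4 (4.47 to 150). The fitted log2 fold changes were 3.57 (edgeR adjusted p = 6.35e-11), 3.06 (adjusted p = 2.66e-08) and 2.83 (adjusted p = 1e-06). With 1 subtracted from every value they were 4.67, 4.12 and 3.88. No SE is given for PDGFD, because those of the fit were smaller than counting error allows. The 9 libraries of these clones held 0.377 to 1.46 CPM, above every library of the other groups. PDGFD passed the filter on low counts only through these clones. Its p-values therefore belong to a gene selected by the groups where it is high. The calls were kept when no filter was applied, but that fit rests on the same counts and is no independent check.

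The ARID1A clones differed in PDGFD. Clone 618-10 had 0.107, 0.163 and 0.109 CPM and clone 618-3 had 0.834, 0.812 and 1.46 CPM. Set directly against each other, 618-10 minus 618-3, the log2 difference was -2.97 (edgeR adjusted p = 2.17e-08), where 1.26% of tested genes were called between these clones. PDGFD passed the filter through 618-3 among others, so this test is not free of that selection. PDGFRA differed there by 0.49 (adjusted p = 0.0475), under the 2-fold limit. Between the SMARCA4 clones 1.85% of tested genes were called and no member was by edgeR or DESeq2, although 3 of 6 had an unadjusted p under 0.05. The intervals of the differences were 0.02 to 0.57 for PDGFRA, 0.19 to 1.90 for PDGFRB and 0.29 to 1.49 for PDGFB. PDGFD differed by 0.23 (edgeR adjusted p = 0.894). In the other 21 clones PDGFD means lay between 0.0662 CPM (PHF10) and 0.218 CPM (SMARCC1), against 0.0824 CPM in wild type, and neighbours in the order overlapped.

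Knockouts of alternative subunits were also set against each other. SMARCA4 and SMARCA2 are the alternative ATPases. Of the members, 4 were higher in the SMARCA4 clones, taken as the mean of both, than in the SMARCA2 clone, where 11.7% of tested genes were called: PDGFRA (301 against 36.0 CPM, log2 difference 3.08, adjusted p = 5.45e-26), PDGFRB (7.66 against 0.343 CPM, 4.34), PDGFB (1.30 against 0.155 CPM, 3.06) and PDGFD (0.649 against 0.128 CPM, 2.34). The SMARCA4 clones are among those through which PDGFD passed the filter, so its test is not free of that selection. The SMARCA2 libraries held 2, 3 and 2 counts of PDGFD.

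ARID1A and ARID1B are alternative subunits of canonical BAF, and 8.93% of tested genes were called between their knockouts. PDGFRA was higher in the ARID1A clones, at a mean of 109 CPM against 4.37 CPM in the ARID1B clone (4.59, adjusted p = 2.4e-30). PDGFB (0.713 against 0.175 CPM, 1.96) was also higher, and PDGFC was lower (24.2 against 69.2 CPM, -1.53). PDGFD was called by edgeR (1.76) but not by DESeq2 (1.77, adjusted p = 0.0927), and of the ARID1A clones 618-3 alone had raised values, as given above. Clone 618-3 is also among those through which PDGFD passed the filter.

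BRD7 and BRD9 mark the PBAF and noncanonical forms, and 5.25% of tested genes were called between them. PDGFRA had 169 ± 7.73 CPM in the BRD7 clone and 26.3 ± 1.96 CPM in the BRD9 clone (SD, n = 3 each; 2.68, adjusted p = 1.91e-21). The core paralogs SMARCD1 and SMARCD2, with 6.59% of tested genes called, gave the widest gap in PDGFRA, 1.59 ± 0.329 against 165 ± 10.5 CPM (-6.73, adjusted p = 2.83e-34). PDGFRB differed the same way there (0.277 against 1.14 CPM, -2.06, adjusted p = 0.0187), a call lost without SMARCD1 replicate 1 (-1.55) or SMARCD2 replicate 3 (-1.79). The scaffold paralogs SMARCC1 and SMARCC2, with 10.7% of tested genes called, differed in PDGFC (94.6 against 36.8 CPM, 1.39, adjusted p = 6.21e-23). Their difference in PDGFRB (1.59, adjusted p = 0.0468) rested on SMARCC1 replicate 3, without which it was 0.17. The call was also lost without SMARCC2 replicate 2 (1.36) or 3 (1.28), with DESeq2 (1.47, adjusted p = 0.0713), with no filter on low counts (adjusted p = 0.0839) and with 1 subtracted from every value (adjusted p = 0.0564).

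Of the 6 members 4 passed the filter on low counts for the double losses. PDGFB and PDGFD did not, with 1 to 8 counts per library each. SMARCA4 mRNA was 10.7 and 28.3 CPM in ARID2 knockout with SMARCA4 knockdown, 20.9 and 23.1 CPM in SMARCA4 knockout with ARID2 knockdown, 43.1 and 129 CPM in wild type with both knockdowns and 26.7 and 23.4 CPM in SMARCA4 knockout with control knockdown, against 297 and 317 CPM in wild type with control knockdown. ARID2 mRNA was 48.3 and 23.6 CPM in ARID2 knockout with SMARCA4 knockdown, 29.6 and 29.8 CPM in ARID2 knockout with control knockdown, 27.9 and 23.7 CPM in SMARCA4 knockout with ARID2 knockdown and 28.6 and 27.3 CPM in wild type with both knockdowns, against 45.1 and 30.9 CPM in wild type with control knockdown. None of these differences passed the test (edgeR adjusted p = 0.791, 0.882, 0.262 and 0.584), so ARID2 mRNA does not check the ARID2 labels.

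PDGFRA had its highest level where SMARCA4 knockout met ARID2 knockdown, at 194 and 151 CPM, against 43.1 and 51.5 CPM in wild type with control knockdown. The log2 fold change was 1.82 (SE 0.26, adjusted p = 0.000937), the only edgeR call among the members in the 7 comparisons. For PDGFRA, 6 of the 7 had an unadjusted p under 0.05 in edgeR, and DESeq2 called 3 and edgeR with a replicate block 2. Of all tested genes 8.55% were called in it, against 9.31% for ARID2 knockout with SMARCA4 knockdown, 0.562% for wild type with both knockdowns, 6.09% for SMARCA4 knockout and 1.57% for ARID2 knockout. Wild type with both knockdowns had 122 and 98.6 CPM (1.21, adjusted p = 0.0615), SMARCA4 knockout 113 and 67.3 CPM (0.89, adjusted p = 0.0573), ARID2 knockout 84.3 and 92.5 CPM (0.91, adjusted p = 0.143) and ARID2 knockout with SMARCA4 knockdown 62.0 and 84.6 CPM (0.58, adjusted p = 0.145). All 10 libraries of these 5 groups were above both wild-type libraries, which they share as controls. The ARID2 knockdown inside SMARCA4 knockout changed PDGFRA by 0.93 (adjusted p = 0.477, with 0.0205% of tested genes called) and the SMARCA4 knockdown inside ARID2 knockout by -0.32 (adjusted p = 0.501, with 2.88% called).

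PDGFRB was not detectably raised by SMARCA4 loss in this table. It had 0.850 and 0.794 CPM (16 and 12 counts) in SMARCA4 knockout with control knockdown, against 1.40 and 0.247 CPM (22 and 3 counts) in wild type with control knockdown. The log2 difference was -0.11 with a 95% interval of -1.59 to 1.38, below the 4.48 and 3.43 measured for the clones of the knockout table. Without replicate 1 of wild type it was 1.65 (SE 1.06), so the spread between the 2 control libraries limits this value. The tables were handled separately, and no test was made across them. Wild type itself differed between them, with 47.2 ± 5.94 CPM of PDGFRA under control knockdown (SD, n = 2) and 92.5 ± 10.1 CPM in the knockout table (SD, n = 3).

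PDGFA ranged from 2.31 ± 0.309 CPM in wild type with both knockdowns to 5.35 ± 0.949 CPM in SMARCA4 knockout, against 4.40 ± 1.35 CPM in wild type with control knockdown (SD, n = 2 each). PDGFC ranged from 28.0 ± 18.9 CPM in ARID2 knockout with SMARCA4 knockdown to 51.7 ± 13.7 CPM in wild type with both knockdowns, against 33.4 ± 8.97 CPM (SD, n = 2 each). Neither was called by edgeR or DESeq2 in any of the 7 comparisons, of which 1 for PDGFA and 0 for PDGFC had an unadjusted p under 0.05. Whether a double loss departed from the sum of the single losses was tested with 3 contrasts, which treat a knockdown as equal to a knockout. Of tested genes 1.06% were called for ARID2 knockout with SMARCA4 knockdown, 0.281% for SMARCA4 knockout with ARID2 knockdown and 3.47% for wild type with both knockdowns. No member was called by edgeR or DESeq2, 2 of the 12 values had an unadjusted p under 0.05 in edgeR, and the PDGFRA value for ARID2 knockout with SMARCA4 knockdown was -1.21 (95% interval -1.92 to -0.51, adjusted p = 0.183).

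**Figure D5:**
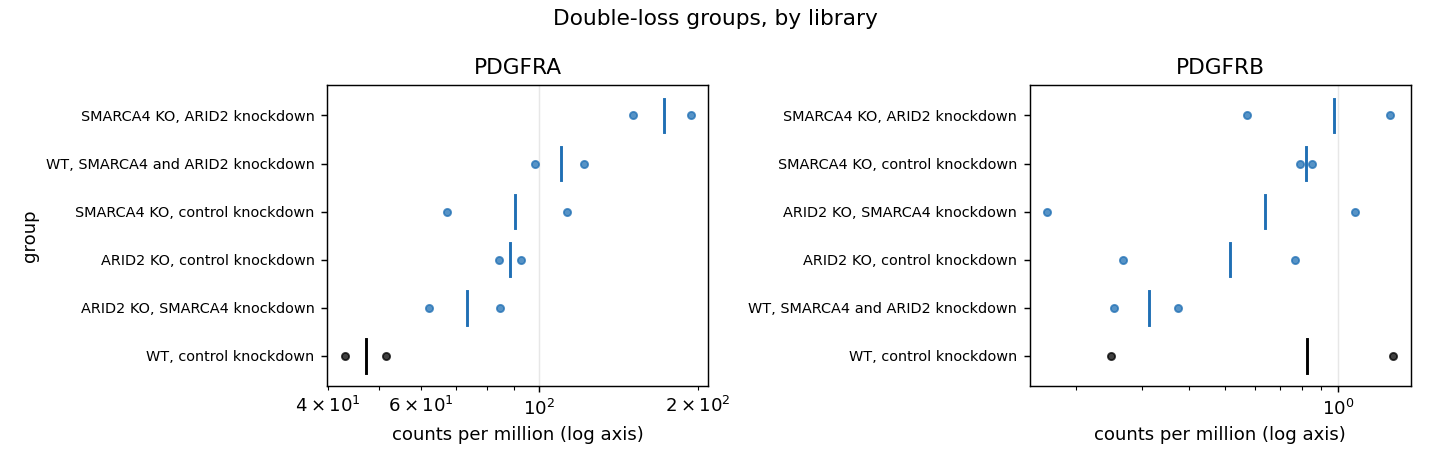
Level in CPM (log axis) of PDGFRA (left) and PDGFRB (right) in each library of the 6 double-loss groups, ordered by mean in each panel, with wild type under control knockdown in black at the bottom; points are libraries and bars are means (n = 2). Each PDGFRA library of the other 5 groups exceeds both wild-type libraries, whereas wild-type PDGFRB spans 0.247 to 1.40 CPM and covers all but 1 of the other libraries.

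Other genes of the pathway were read from lists by role. Of 13 tested genes for ligand processing and binding, 10 were called in at least 1 clone, with a median of 4 clones per gene, where the median over all tested genes was 0 and 25.3% of them were called in at least 1 clone. THBS1, the matrix protein thrombospondin, was called in 17 clones (6 higher, 11 lower), at 425 and 407 CPM in the SMARCA4 clones (log2 fold changes 4.85 and 4.77) and 0.298 CPM in the SMARCC2 clone (-5.70), against 15.0 CPM in wild type. SRPX2, a secreted protein that binds the urokinase receptor, was called in 16 (8 higher, 8 lower) and reached 26.9 CPM in ARID1A clone 618-3 against 0.806 CPM in wild type (5.02). PCSK5, a proprotein convertase, was called in 13 (2 higher, 11 lower), at 0.729 CPM in the SMARCD1 clone against 5.55 CPM in wild type (-2.96).

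Of 33 tested genes of receptor-proximal signalling, 29 were called in no clone, as were 74.7% of all tested genes. STAT5A, a transcription factor activated by many receptors, was called in 9 clones (7 higher, 2 lower), highest in ACTB (4.70 against 1.19 CPM in wild type, 1.98). The actin adaptor TNS1 was called in 5, lowest in the SMARCA4 clones (-3.37 and -3.55). PTPRJ, a phosphatase that acts on PDGFRB, was called lower in 3, among them both SMARCA4 clones at 17.3 and 15.5 CPM against 52.6 CPM in wild type (-1.58 and -1.75). PIK3R1, a regulatory subunit of PI3K, was likewise called lower in 3.

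Among 12 tested genes of related receptors and ligands 8 were called in at least 1 clone, with a median of 2 clones, beside the 25.3% of all tested genes. VEGFC, a lymphatic growth factor, was called in 15 clones (6 higher, 9 lower). It had 14.8 and 10.9 CPM in the SMARCA4 clones and 0.189 CPM in the SMARCD3 clone, against 3.64 CPM in wild type (2.05, 1.59 and -4.26). Of the VEGF receptor genes, FLT1 was called in 9 clones (3 higher, 6 lower) and FLT4 in 8 (7 higher, 1 lower). FLT1 had 7.38 CPM in PHF10 (1.25) and FLT4 had 42.2 CPM in SMARCC2 (2.21), against 3.10 and 8.86 CPM in wild type.

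Markers of cells that carry these receptors also differed between clones. The summed level of the 10 fibroblast markers was lowest in the BCL7B clone at 120.5 CPM and highest in SMARCA4 clone 2878-6 at 404 CPM, against 169 CPM in wild type. The summed level of 10 mural cell markers ran from 170 CPM in the ARID1B clone to 591 CPM in the ACTB clone, against 210 CPM in wild type. Its tested members shared no direction. KCNJ8 was called in 13 clones (1 higher, 12 lower), CSPG4 in 11 (9 higher, 2 lower), ANPEP in 7 (1 higher, 6 lower) and ACTA2 in 4 (2 higher, 2 lower). RGS5, NOTCH3, MCAM, ABCC9 and MYH11 were called in none. Of the 5 tested fibroblast markers, POSTN was called in 20 clones (8 higher, 12 lower), COL3A1 in 19 (8 higher, 11 lower), THY1 in 16 (8 higher, 8 lower), COL1A1 in 2 (both higher) and PDPN in none. Of 9 lung epithelial markers 5 stayed under 1 CPM in every group, and the summed level ran from 2.87 CPM in the ARID1B clone to 46.2 CPM in the SMARCD1 clone, against 9.01 CPM in wild type. NKX2-1 was called in 15 clones (11 higher, 4 lower), EPCAM in 9 (3 higher, 6 lower) and AKR1C2 in 3 (1 higher, 2 lower). NAPSA, AKR1B10 and KRT7 were each called higher in 1. The part of these markers in the receptor changes was not tested.

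The members did not follow a common pattern over the 25 group means of log2(CPM + 0.5). As a description, PDGFRB and PDGFB correlated at 0.681, PDGFRA and PDGFRB at 0.591 and PDGFRB and PDGFD at 0.498. All these points share libraries, and the SMARCA4 clones are high in each. PDGFC correlated with the other members at between -0.303 and 0.182. The genes most like PDGFRA were RFX4 (0.89), KPNA6 (0.885) and CDH2 (0.856), among 11946 genes compared. RFX4, a neural transcription factor gene, ranged between 26.3 CPM in SMARCA4 2878-6 and 1.16 CPM in SMARCD1, against 6.21 CPM in wild type. CDH2, the gene of N-cadherin, ranged between 213 and 43.8 CPM against 104 CPM in wild type, whereas KPNA6, an importin gene, ranged between 129.9 and 100.5 CPM.

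TMTC1 (0.901), CRB2 (0.892) and CRISPLD1 (0.888) were most like PDGFRB, and PROCR (0.768), TVP23C-CDRT4 (0.75) and MRPL33 (0.749) most like PDGFB. PDE3A (0.888), TIAM2 (0.851) and CDH4 (0.836) were most like PDGFD and CTNNA1 (0.791), CELF2 (0.762) and C2CD2 (0.754) most like PDGFC. For PDGFA the best were lower, INHBB at 0.648, MLLT11 at 0.636 and CCDC3 at 0.617. The wide ranges of TMTC1 (0.518 to 32.4 CPM) and PDE3A (0.0463 to 34.9 CPM) both had their highest mean in a SMARCA4 clone. The low end of PDE3A is at the lowest listed value of 1 count.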

How the data were processed

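Poly-A RNA of HAP1 cells was sequenced from a stranded mRNA kit, per the labels' protocols. The deposited gene-level tables hold estimated counts, which are whole numbers with a lowest listed value of 1; counts of 1 may therefore stand for no reads. The submitters' processing notes name Trimmomatic, Bowtie, Picard and DESeq2 and the builds GRCh37 and hg19; no source used here gives their versions or roles, or whether counting used strand. A further table deposited by the authors holds quantile-normalized log2 TPM. In all 71 matched libraries it ranks genes as the counts do, so no division by gene length is visible, and it served only as an alternative. Levels between genes were instead set per kilobase of exonic length, which departs from the planned use of log2 TPM. In all, 8 columns that matched no sample were not used.

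CPM was computed as count over library total. Each table was fitted once over all its groups with edgeR 4.0.16 (TMM, filterByExpr, robust quasi-likelihood F-test; R 4.3.3), which tested 16159 genes for the knockouts and 14601 for the double losses. DESeq2 1.42.0 and limma 3.58.1, other scaling, no filter, a value of 1 subtracted, only the groups compared, a replicate term and each library left out were alternatives. The adjusted p alone, read from the main fit without the 2-fold limit, was counted as another. Standard errors were taken as the log2 fold change over the square root of F. At the few counts of PDGFD they fell below counting error, so they are left out for it. The fit was also run on simulated data, with changes planted only in genes that averaged at least 1 CPM. That run does not cover genes as low as PDGFB and PDGFD. Replicates differed beyond sampling noise (lowest chi-square per degree of freedom 7.45). Median depth was 20042760 and 13678178 counts. Promoter sequences came from RefSeq, with 4 members matched. Of each pathway or locus list the text names the 3 genes called in most clones (ties by the larger median absolute log2 fold change) and others singled out by their counts. The genes most like a member were the 3 with the highest Pearson correlation over group means. Members and gene lists were chosen with earlier results of these data known.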

Additional observations from a re-analysis of the deposited data

Results flagged for a closer look

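PDGFD differed between the clones of a single gene. ARID1A clone 618-10 had 2, 3 and 2 counts and clone 618-3 had 15, 16 and 28 counts, with no overlap. The log2 difference was -2.97 (edgeR adjusted p = 2.17e-08). The summed counts per depth in 618-10 were 0.122 times those in 618-3 (95% exact counting interval 0.0469 to 0.267). The direct test between the clones drew attention to this value. PDGFD passed the filter on low counts only through 618-3 and the SMARCA4 clones, so this test is not free of that selection.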

How the results depend on the processing

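Of 226 tested member contrasts 45 were called, and 36 of these kept their call under every alternative run. With the adjusted p alone, PDGFA was called in 12 clones, PDGFC in 13 and the clone pairs gave 2 calls. The share of all tested genes at that rule was not counted. With only the groups compared in the fit, PDGFB was called in 3 clones and the clone pairs gave 2 calls. In the double-loss table PDGFRA was called in 3 contrasts by DESeq2. Leaving out 1 library gave 12 to 13 called clones for PDGFRA, 2 to 4 for PDGFRB, 2 to 4 for PDGFA and 4 to 10 for PDGFB. PDGFC gave 2 and PDGFD 3 each time. For PDGFRA in the double-loss table it gave 1 to 2 calls, 2 without SMARCA4 knockout replicate 2. Clone pairs gave 1 each time, paralog pairs 12 to 14 and non-additivity 0, as did PDGFRB, PDGFA and PDGFC in the double-loss table.

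The log2 difference of PDGFRB between SMARCA4 knockout and wild type under control knockdown, -0.11, changed sign to 0.163 with DESeq2, to 0.030 with a replicate block and to 1.65 without wild-type replicate 1; leaving out 1 library gave -0.80 (without wild-type replicate 2) to 1.65. The cause was not tested. The ARID1A minus ARID1B call of PDGFD was lost with DESeq2. In the knockout table replicate numbers did not pair samples by the check: in 4 of 24 clones every same-numbered pair correlated above 0.1 in its deviations (-0.25 to 0.452). Of the double-loss groups 5 of 5 did (0.106 to 0.555), but 2 pairs each are too few for the check, so pairing there was not established. With a replicate block PDGFRA was called in 12 clones, PDGFRB in 4, PDGFA in 2, PDGFB in 7, PDGFC in 2 and PDGFD in 3, and PDGFRA in 2 double-loss contrasts. The log2 TPM table gave no SMARCC2 value, and PDGFB and PDGFD were too low to test in the double-loss table.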

Other observations

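In the double-loss table the library numbered 1 had the highest PDGFRB level in 6 of 6 groups and the highest PDGFC level in 6 of 6. For PDGFRA it was the highest in 3 of 6. PDGFB and PDGFD, which were not tested there, had means of 0.424 and 0.444 CPM in SMARCA4 knockout, against 0.229 and 0.137 CPM in wild type with control knockdown, from 1 to 8 counts per library.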
